A study of Mus musculus with 18 samples.

Results

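Trp53, the gene of the tumour suppressor p53, and 9 of its best known target genes were followed across 18 RNA-seq libraries of C2C12 cells, a mouse muscle cell line that grows as myoblasts and fuses into myotubes when serum is withdrawn. The 10 genes were chosen by name, out of 55450 gene IDs in the count table, because the long noncoding RNA Meg3 has been reported to act through p53, and because Perp, 1 of them, was already known to be lost in the knockout myotubes of these data. The loss of Perp in knockout against control myotubes was therefore selected on measured values. That comparison is described here without a test for any of the 10 genes, and Perp gets no p-value wherever the knockout myotubes enter. Its tests that use control myotubes or knockout myoblasts share libraries or the clone with that choice. They are no independent support, and the counts of passing genes include Perp there. All 10 genes passed the filter on low counts, which 17912 genes passed.

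p53 is a transcription factor that is held at a low level by Mdm2, the ubiquitin ligase that marks it for degradation and whose own gene p53 switches on. DNA damage and other stress free p53 from Mdm2, and the protein then activates genes that stop the cell cycle, start cell death, repair DNA or slow growth signalling. Most of this control acts on the protein, so the level of Trp53 mRNA by itself does not measure p53 activity. Among the targets followed here, Ccng1 encodes cyclin G1, which feeds back on Mdm2 and p53, and Trp53inp1 encodes a stress-induced cofactor of p53. Bax encodes a protein that opens pores in the mitochondrial outer membrane, and Bbc3 encodes PUMA, a BH3-only protein that promotes that step. Sesn1 encodes sestrin 1, which restrains TORC1, Zmat3 an RNA-binding zinc finger protein, Phlda3 a protein that competes with AKT for membrane lipids, and Perp a membrane protein of desmosomes. In muscle, p53 has been linked to the cell cycle exit that comes with differentiation and to the loss of muscle mass.

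Control cells were a sorted population that had received the pX458 vector (Cas9 with EGFP) and no guide. The mutant lines were single-cell clones made with guide RNA pairs against the promoter region of Meg3, in the imprinted Dlk1-Dio3 locus. The labels call clone 2-4 a Dlk1-Dio3 overexpressor and clone 2-7 a Dlk1-Dio3 knockout. Each line was sequenced as myoblasts in medium with 10% fetal bovine serum and as myotubes on day 3 of differentiation in 2% horse serum, with 3 libraries (A, B and C) for each of the 6 groups. Each mutant genotype was 1 clone set against a control population, so genotype and clone cannot be told apart. Nothing in the labels says that the 3 libraries came from separate cultures, so the p-values measure the spread between these libraries, which may be technical.

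The libraries held 41544358 to 79140702 counts, at which 3 counts, the upper limit that a count of 0 allows, stand for 0.0375 to 0.0693 CPM (the count scaled for library size with TMM factors, as in all levels given here). Such limits cover counting error only. Meg3 itself had 0 counts in the 12 control and knockout libraries and 5222 to 7763 counts in the 6 overexpressor libraries, so Meg3 does not separate the knockout from the control and the direction of that comparison rests on the label. The 6 muscle markers summed to 1230 to 1398 CPM in control myoblasts, 2485 to 3080 in overexpressor myoblasts and 7169 to 8717 in knockout myoblasts, against 8338 to 9087 in control myotubes. They summed to 14643 to 16022 CPM in overexpressor myotubes and 18872 to 22771 in knockout myotubes. Both mutant lines thus carried more muscle transcripts than control at the same stage, and the part of this in the changes of the p53 genes was not tested. In such bulk samples, fewer cells of a type and less RNA per cell cannot be told apart. Of the other marker lists, only epithelium stood above 4 CPM, through Krt14, while Epcam was at 0 in every library.

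Within the groups, the libraries also differed along the GC content of the genes. A library's GC index is the slope, on the log2 scale per 10 points of GC, of its genes' deviations from the mean of its group. It was −0.31 in overexpressor myotube library C against 0.20 and 0.11 in A and B, and −0.20 in knockout myotube library A against 0.02 and 0.18 in B and C. Whole groups differed as well, by the same slope taken from the mean of all libraries. It was 0.22, 0.45 and 0.60 in knockout myotube libraries A, B and C, and 0.01, 0.06 and −0.15 in control myotubes. In knockout myoblasts it was −0.20, −0.19 and −0.18. Ccng1 and Trp53inp1 are poor in GC (40.8% and 38.8% of the longest transcript, the 7.97th and 3.38th percentile of the genes tested), and Bax, Bbc3 and Phlda3 are rich in it (63.5%, 65.2% and 62.6%, at or above the 98.6th percentile). Where leaving out overexpressor myotube library C or knockout myotube library A ended a call of the 10 genes, the value without it is given. The same holds where it moved a passing value by over 1.5 times. Genes outside the 10 were not followed singly in this way.

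To show the p53-type sequence that the promoters of these genes carry, RefSeq promoter windows (250 bases before to 50 after each annotated start, assembly GRCm38.p6) were searched for the consensus decamer of the p53 response element. The consensus is its own reverse complement, so 1 search covers both strands. Of the 10 genes, 7 had a window, and Perp, Trp53inp1 and Zmat3 had none in the table. The decamer was present in 5 of their 10 windows, those of Bax, Mdm2, Ccng1, Trp53 and the second start of Sesn1, against 8.36% of all 32851 windows. The stretches around it follow for the 4 genes whose stretch overlaps no annotated exon, 5′ to 3′ on the strand of the gene, with the decamer in capitals.
Ccng1, chr11:40755437-40755526, minus strand: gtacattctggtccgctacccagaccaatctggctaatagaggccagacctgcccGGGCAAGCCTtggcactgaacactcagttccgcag
Mdm2, chr10:117710910-117710999, minus strand: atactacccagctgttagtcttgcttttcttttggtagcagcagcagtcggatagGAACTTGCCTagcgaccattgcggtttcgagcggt
Bax, chr7:45467065-45467148, minus strand: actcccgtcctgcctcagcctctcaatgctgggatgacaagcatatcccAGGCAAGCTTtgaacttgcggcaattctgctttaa
Sesn1, chr10:41887211-41887300, plus strand: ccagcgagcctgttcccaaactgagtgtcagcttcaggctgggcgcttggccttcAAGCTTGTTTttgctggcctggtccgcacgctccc
A response element is made of a pair of decamers, and of these windows only that of Ccng1 held a second copy directly beside the first, with 1 mismatch over the 20 bases, an arrangement found, with 1 mismatch or fewer, in 0.0883% of all windows. Its decamer begins 185 bases before the start, that of Mdm2 186 bases, that of Bax 201 bases and that of Sesn1 173 bases. A match describes letters only. No binding was measured.

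In myoblasts, the overexpressor differed from control mainly in higher Bbc3 and lower Sesn1, with smaller changes of Trp53, Bax and Mdm2. Of the 10 genes, 5 passed the test (edgeR quasi-likelihood, adjusted p under 0.05 over all genes tested), 3 higher (Mdm2, Bax and Bbc3) and 2 lower (Trp53 and Sesn1). Over all genes 40.4% passed, 20.7% higher and 19.7% lower, and the median log2 change was 0.07 for the 10 genes and 0.02 for all. In knockout myoblasts, Mdm2 was higher and Zmat3 and Perp were lower than in control, and the other 7 did not pass. There 53% of all genes passed, 26.4% higher and 26.6% lower, with a median of 0.01 for the 10 genes and 0.02 for all. The count of 3 in the knockout was 7 with only the groups compared and 8 with the GC content of the genes as an offset in each library, where 10591 of 17912 genes passed. Its place below or above the share of all genes thus changed with the setting. Both comparisons use the same control libraries. Set directly against each other in myoblasts, the mutant lines differed in 7 of the 10 genes, 4 higher and 3 lower in the overexpressor, where 52.6% of all genes passed, 25.7% higher and 26.9% lower.

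In myotubes, the overexpressor differed from control in 8 of the 10 genes. Ccng1, Mdm2, Bbc3 and Sesn1 were higher, and Trp53, Zmat3, Phlda3 and Perp were lower. Over all genes 57.1% passed, 26.2% higher and 30.9% lower, and the medians were −0.07 for the 10 genes and −0.04 for all. In knockout against control myotubes, the comparison that entered the choice of genes, Perp and Sesn1 differed by at least 2-fold, as did 33.0% of all genes. The medians were 0.37 for the 10 genes and −0.07 for all. That of all genes was 0.06 with DESeq2 size factors and 0.09 with the GC offset. Of the 10 genes 7 stood higher, a count for which the share over all genes was not taken. Between the mutant myotubes, 6 of the 9 genes that could be tested passed, with Ccng1 higher and Trp53, Bax, Sesn1, Zmat3 and Phlda3 lower in the overexpressor. Of all genes 59.7% passed there, 30.6% higher and 29.1% lower.

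**Figure D1:**
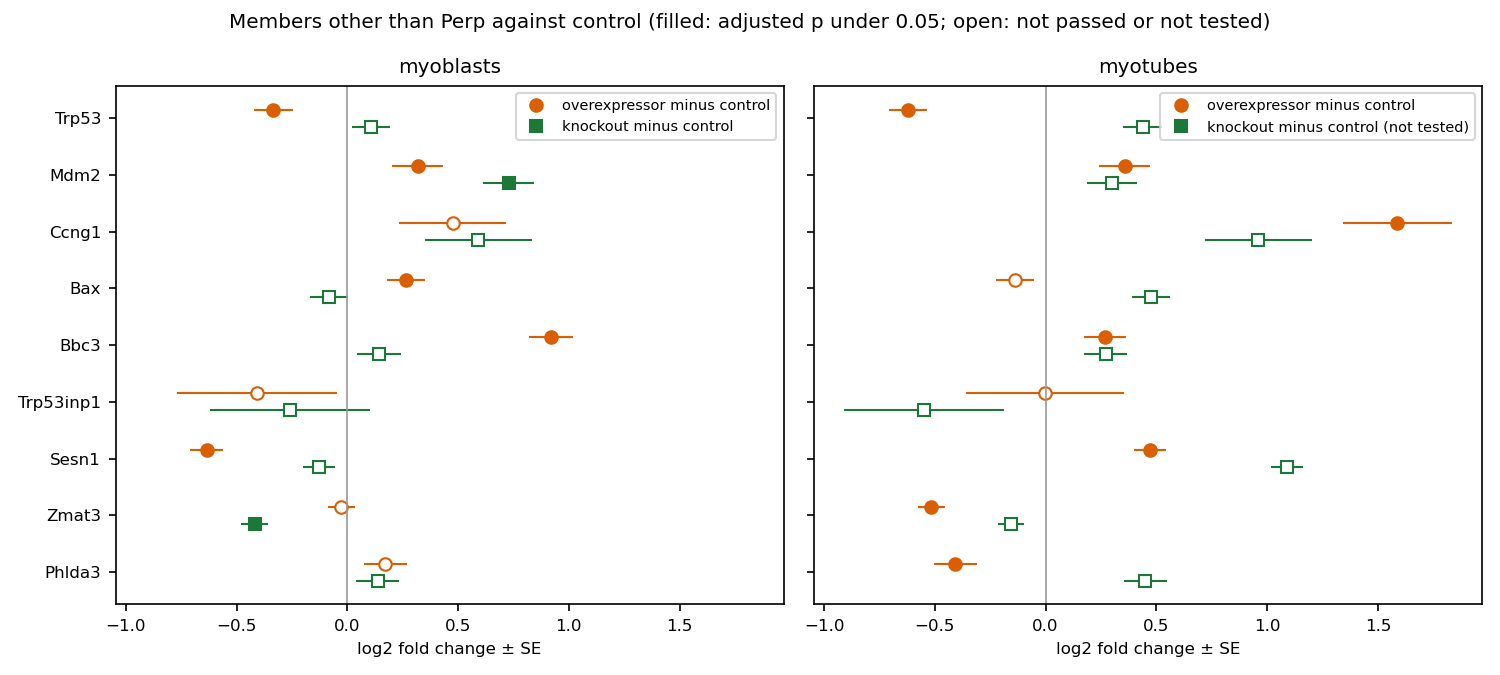
Log2 fold change (x axis, ± SE) of 9 of the genes against control in myoblasts (left) and myotubes (right), with the overexpressor as orange circles and the knockout as green squares. Filled symbols passed the test, open ones did not or were not tested (knockout myotubes), and Perp is left out for its scale. Bbc3 and Sesn1 moved furthest in overexpressor myoblasts, and Ccng1 in overexpressor myotubes.

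The direction of change with differentiation differed between lines for several of these genes, while the number that passed was 7 of 10 in control, 8 of 10 in the overexpressor and 5 of 9 in the knockout, against 62.8%, 62.8% and 65.4% of all genes. From control myoblasts to control myotubes, Mdm2, Bbc3, Phlda3 and Perp rose and Trp53, Bax and Sesn1 fell, 7 of 10 in all, where 62.8% of all genes passed, 33.9% higher and 28.8% lower. In the overexpressor 8 of 10 passed, with Mdm2, Ccng1, Bbc3 and Sesn1 higher and Trp53, Bax, Zmat3 and Perp lower. There 62.8% of all genes passed, 29.8% higher and 33.0% lower. In the knockout 5 of the 9 genes that could be tested passed, all of them higher (Bax, Bbc3, Sesn1, Zmat3 and Phlda3), against 65.4% of all genes, 29.8% higher and 35.6% lower. With library totals in place of TMM factors, Mdm2 (0.26, adjusted p = 0.0682) and Phlda3 (0.16, adjusted p = 0.132) no longer passed in control differentiation, nor did Bax in the knockout (0.08, adjusted p = 0.371).

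The response to differentiation was also compared between lines, as the difference of the myotube-against-myoblast changes, which has a sign and does not measure the size of a response. In the overexpressor it differed from that of control for 7 of the 10 genes, higher for Ccng1 and Sesn1 and lower for Bax, Bbc3, Zmat3, Phlda3 and Perp, where 39.0% of all genes passed, 16.6% higher and 22.3% lower. In the knockout it differed for 5 of 9, higher for Trp53, Bax, Sesn1 and Zmat3 and lower for Mdm2, where 50.1% of all genes passed, 20.2% higher and 29.9% lower. The count in the knockout rested on the library set, with 2 genes passing without control myotube library C and 3 without any 1 of control myoblasts B or C, knockout myoblasts A or B, or knockout myotubes B or C.

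**Figure D2:**
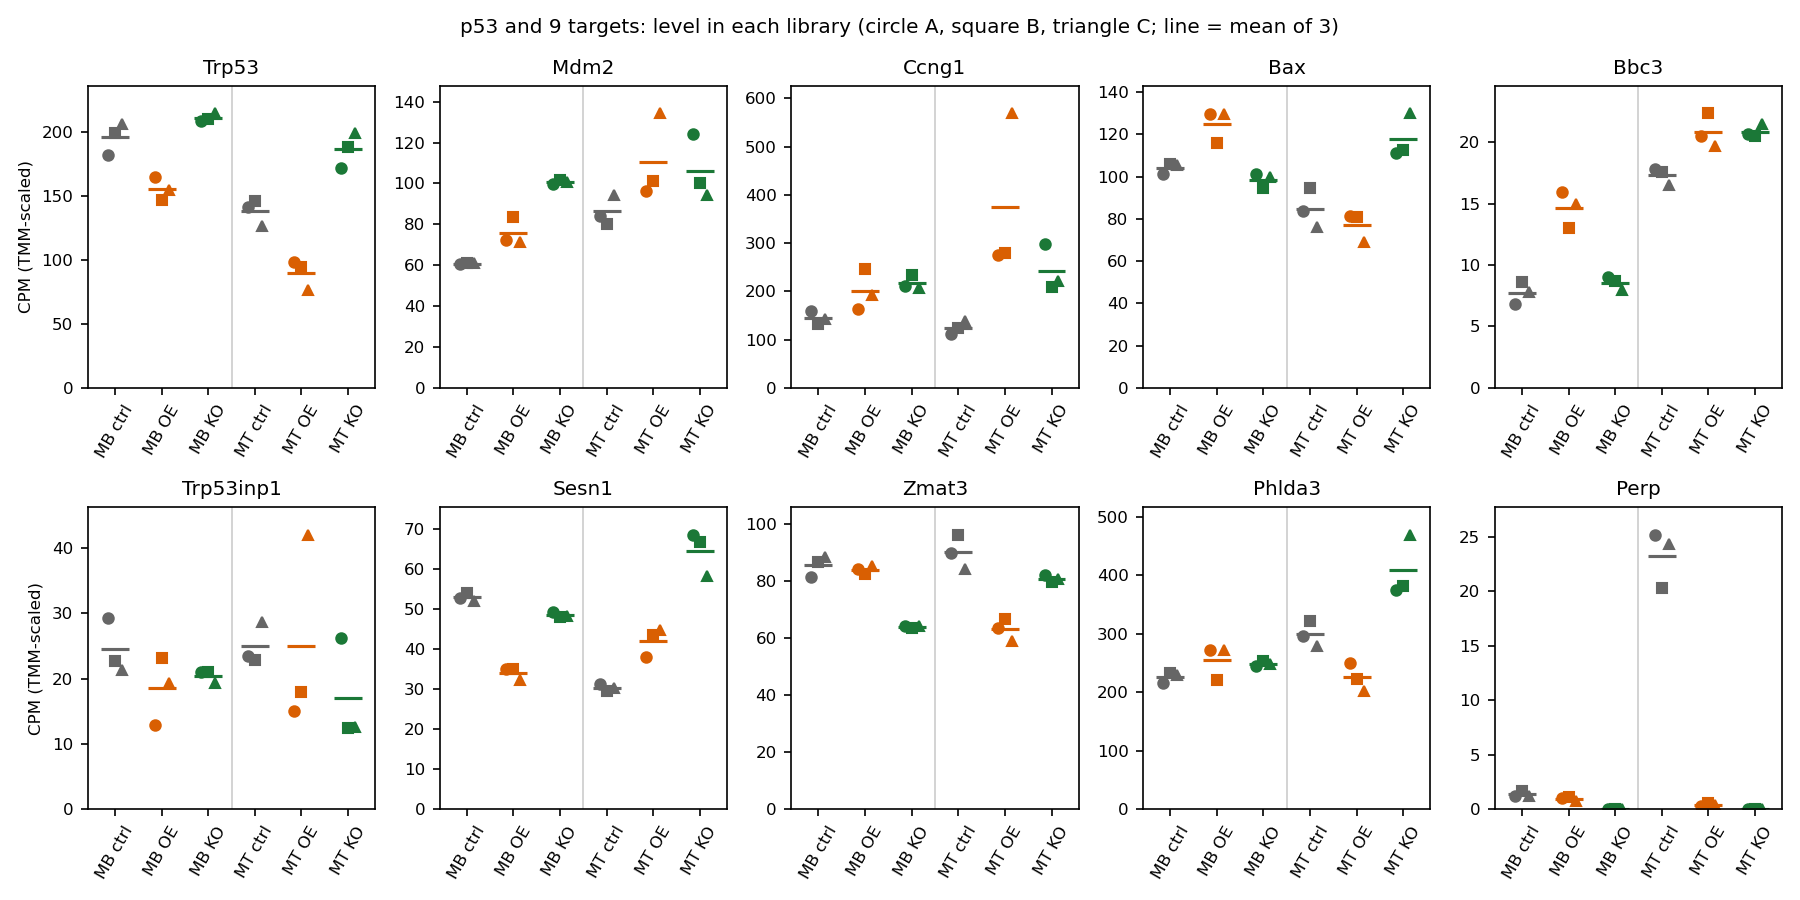
Level of each of the 10 genes in each of the 18 libraries, in CPM on a linear axis from 0 (MB, myoblasts, MT, myotubes, ctrl, control, OE, overexpressor, KO, knockout). Circles, squares and triangles are libraries A, B and C, and the line is the mean of 3. Perp is at 20.3 to 25.2 CPM in control myotubes only, and library C of the overexpressor myotubes stands apart in Ccng1 and Trp53inp1.

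Trp53 (chromosome 11, 69580359 to 69591873, plus strand, protein-coding, as annotated in GRCm38) was lower in the overexpressor at both stages and fell with differentiation in control and overexpressor. In myoblasts it stood at 182, 199 and 206 CPM in control libraries A, B and C, at 164, 147 and 155 in the overexpressor and at 208, 210 and 214 in the knockout. Control myotubes held 141, 146 and 126 CPM, those of the overexpressor 97.9, 94.5 and 76.3 and those of the knockout 172, 188 and 199. The overexpressor libraries lay below all control libraries of the same stage, and the highest mean, in knockout myoblasts, was 2.36 times the lowest, in overexpressor myotubes. In the order of the 6 groups, only control myoblasts and knockout myotubes are neighbours whose libraries overlap. Against control, Trp53 fell by 0.33 ± 0.09 on the log2 scale in overexpressor myoblasts (SE, n = 3 and 3, adjusted p = 0.00453) and by 0.62 ± 0.09 in overexpressor myotubes (adjusted p = 6.56e-06). Without overexpressor myotube library C the second change was −0.41 (adjusted p = 0.000236). In knockout myoblasts the change was 0.11 ± 0.09 (adjusted p = 0.313), and in knockout myotubes Trp53 was 1.35-fold above control, a difference given without a test.

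With differentiation, Trp53 fell by 0.51 ± 0.09 in control (adjusted p = 5.45e-05) and by 0.80 ± 0.09 in the overexpressor (adjusted p = 2.36e-07). In the knockout the change was −0.18 ± 0.09 and did not pass (adjusted p = 0.0801), but it passed with library totals (−0.35, adjusted p = 0.00115), with the GC offset (−0.30, adjusted p = 0.000104) and with the GC covariate (−0.18, adjusted p = 0.000359). Its difference from the control response was 0.33 ± 0.12 (adjusted p = 0.0326). That difference did not pass without any 1 of 7 libraries, with adjusted p up to 0.0933 without control myotube library C.

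Mdm2 (chromosome 10, 117688875 to 117710758, minus strand), the ligase that degrades p53 and a p53 target itself, was lowest in control myoblasts and higher in every other group. Control myoblasts held 60.5, 60.9 and 60.9 CPM, overexpressor myoblasts 72.3, 83.5 and 71.3 and knockout myoblasts 99.9, 102 and 101. Control myotubes held 84.2, 80.4 and 94.3 CPM, overexpressor myotubes 96.1, 101 and 134 and knockout myotubes 124, 100 and 94.4. The 3 groups of myoblasts did not overlap, while knockout and control myotubes nearly met at 94 CPM. Mdm2 rose by 0.73 ± 0.11 in knockout myoblasts (adjusted p = 3.14e-05), a 1.66-fold difference. In overexpressor myoblasts it rose by 0.32 ± 0.11 (adjusted p = 0.0342), a call that was lost with library totals (adjusted p = 0.0826), with no filter on low counts (0.0883) and without any control library or overexpressor library B (0.0773 to 0.146). In overexpressor myotubes it rose by 0.36 ± 0.11 (adjusted p = 0.0123, and 0.0549 without control library B).

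Differentiation raised Mdm2 in control by 0.51 ± 0.11 (adjusted p = 0.000856) and in the overexpressor by 0.55 ± 0.11 (adjusted p = 0.000418). In the knockout, where it was high already in myoblasts, the change was 0.08 ± 0.11 (adjusted p = 0.565), and 0.40 (adjusted p = 7.14e-05) with the GC offset, where control gave 0.45. The difference between the knockout and control responses was −0.43 ± 0.16 (adjusted p = 0.0349) and did not pass with the GC offset (−0.044, adjusted p = 0.76), DESeq2 size factors (−0.28, adjusted p = 0.117), library totals (−0.35, adjusted p = 0.0988) or no filter on low counts (−0.44, adjusted p = 0.06), nor without any 1 of 9 libraries.

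Ccng1 (chromosome 11, 40748552 to 40755311, minus strand), the cyclin gene with the paired decamer printed above, had the largest change of the 10 genes after Perp in any comparison. Control myoblasts held 159, 131 and 143 CPM, overexpressor myoblasts 164, 246 and 193 and knockout myoblasts 212, 234 and 207. Control myotubes held 111, 125 and 139 CPM, overexpressor myotubes 276, 279 and 569 and knockout myotubes 297, 209 and 222. Every mutant library lay above every control library of its stage, and overexpressor myotube library C stood far above the other two. In overexpressor myotubes Ccng1 rose by 1.59 ± 0.25 (adjusted p = 5.56e-05), a 3.00-fold difference, and by 1.26 ± 0.15 without library C (adjusted p = 3.2e-06).

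In myoblasts the changes of Ccng1 were 0.48 ± 0.24 in the overexpressor (adjusted p = 0.137) and 0.59 ± 0.24 in the knockout (adjusted p = 0.0527). The spread of overexpressor myotube library C enters the estimate of error there. Without it the values were 0.46 (adjusted p = 0.0134) and 0.58 (adjusted p = 0.00225). The higher level in overexpressor than knockout myotubes, 0.63 ± 0.24 (adjusted p = 0.0363), did not pass without library C (0.22, adjusted p = 0.244), and it turned to −0.17 (adjusted p = 0.0831) when the GC content of the genes was set as an offset in each library.

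With differentiation Ccng1 rose in the overexpressor (0.90 ± 0.24, adjusted p = 0.00453). The rise was 0.51 (adjusted p = 0.00848) without library C, and it did not pass with only the groups compared (0.90, adjusted p = 0.0512). In control the change of −0.21 ± 0.24 did not pass (adjusted p = 0.467), but it passed with only the groups compared (−0.28, adjusted p = 0.015) and with the GC offset (−0.31, adjusted p = 0.00322). The difference between these responses was 1.11 ± 0.34 (adjusted p = 0.0178), and 0.79 (adjusted p = 0.0063) without library C. In the knockout the change was 0.16 ± 0.24 (adjusted p = 0.577), and 0.98 (adjusted p = 8.14e-09) with the GC offset.

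Trp53inp1 (chromosome 4, 11156431 to 11174379, plus strand), the p53 cofactor, passed in none of the 10 comparisons in which it was tested. Its means lay between 17.1 and 25.0 CPM, and its libraries spread widely within groups, at 15.0, 17.9 and 42.0 CPM in overexpressor myotubes and 26.2, 12.5 and 12.7 in knockout myotubes. The high libraries, C and A, are those with the lowest GC index of their groups. With the GC index as a covariate its change in overexpressor myoblasts was −0.43 (adjusted p = 0.00754), against −0.41 ± 0.36 (adjusted p = 0.416) without it.

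**Figure D3:**
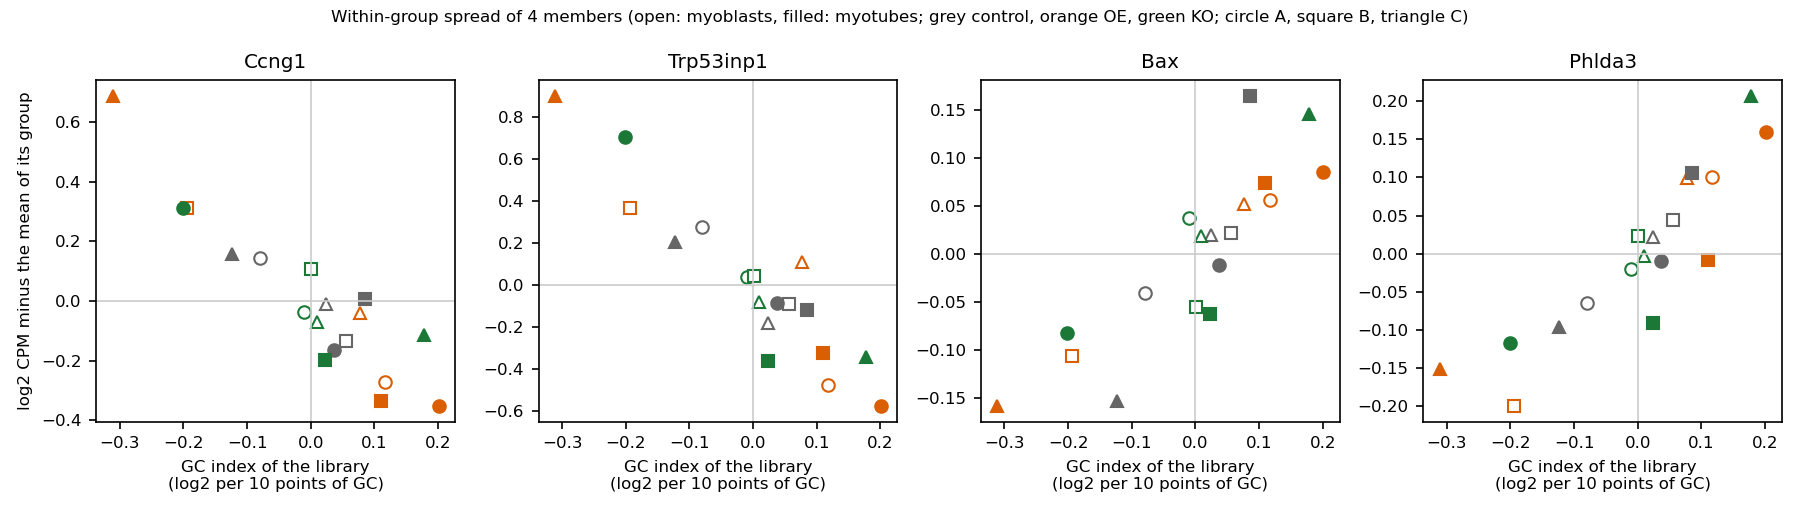
Deviation of each library from the mean of its group, in log2 CPM, for Ccng1, Trp53inp1, Bax and Phlda3 (y axis, with a scale of its own in each plot) against the library's GC index (x axis). The genes poor in GC fall from left to right and the genes rich in GC rise, with overexpressor myotube library C at the far left in all 4 plots.

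The pro-death genes Bax and Bbc3 rose in overexpressor myoblasts and differed in their course from there. Bax (chromosome 7, 45461697 to 45466898, minus strand, overlapped on the same strand by Gm45808) held 101, 106 and 106 CPM in control myoblasts, 130, 116 and 130 in overexpressor myoblasts and 101, 94.9 and 99.9 in knockout myoblasts. It held 83.8, 94.8 and 76.0 CPM in control myotubes, 81.6, 80.9 and 68.9 in overexpressor myotubes and 111, 113 and 130 in knockout myotubes. The overexpressor thus had the highest libraries among myoblasts and, overlapping with control, the lowest among myotubes. The rise in overexpressor myoblasts was 0.26 ± 0.09 (adjusted p = 0.0198), which did not pass without control library A (0.0716) or overexpressor library A (0.0738) or C (0.0683).

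With differentiation Bax fell by 0.30 ± 0.09 in control (adjusted p = 0.00558) and by 0.70 ± 0.09 in the overexpressor (adjusted p = 1.05e-06), and rose by 0.26 ± 0.09 in the knockout (adjusted p = 0.0142). The knockout response differed from that of control by 0.55 ± 0.12 (adjusted p = 0.00104), and by 0.22 (adjusted p = 0.0118) with the GC offset. The fall in control was 0.54 with library totals and 0.19 with the offset, and passed in both. The rise in the knockout did not pass without knockout myoblast library B (0.23, adjusted p = 0.0556) or knockout myotube library C (0.18, adjusted p = 0.0866), and it was 0.02 (adjusted p = 0.697) with the GC offset. The overexpressor response differed from that of control by −0.40 ± 0.12 (adjusted p = 0.0132), or −0.29 (adjusted p = 0.112) with DESeq2 size factors and −0.21 (adjusted p = 0.175) without overexpressor myotube library C.

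Bbc3 (chromosome 7, 16308393 to 16318205, plus strand), the gene of PUMA, had the largest rise of the 10 genes in overexpressor myoblasts. Control myoblasts held 6.81, 8.65 and 7.79 CPM, overexpressor myoblasts 15.9, 13.0 and 15.0 and knockout myoblasts 9.03, 8.70 and 7.93. Control myotubes held 17.8, 17.6 and 16.5 CPM, overexpressor myotubes 20.5, 22.3 and 19.7 and knockout myotubes 20.7, 20.5 and 21.5. Overexpressor myoblasts stood between the myoblasts of the other lines and all the myotubes, with no overlap on either side. The rise against control was 0.92 ± 0.10 (adjusted p = 4.93e-07), or 1.89-fold, and it passed under every alternative. In overexpressor myotubes the rise was 0.27 ± 0.09 (adjusted p = 0.0219), and it did not pass without control library C (0.0784) or overexpressor library B (0.0935). It was 0.41 without overexpressor library C (adjusted p = 0.00262) and 0.42 with library totals (adjusted p = 0.000842). Bbc3 rose with differentiation in all 3 lines, by 1.16 ± 0.10 in control (adjusted p = 8.28e-09), 0.51 ± 0.10 in the overexpressor (adjusted p = 0.000142) and 1.29 ± 0.10 in the knockout (adjusted p = 3.08e-09). The smaller rise in the overexpressor differed from that of control by −0.65 ± 0.14 (adjusted p = 0.000879).

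Sesn1 (chromosome 10, 41809935 to 41908424, plus strand, overlapped on the same strand by 9930024M15Rik), the sestrin gene, fell with differentiation in control and rose in both mutant lines. Control myoblasts held 52.8, 53.9 and 52.0 CPM, overexpressor myoblasts 34.96, 34.99 and 32.2 and knockout myoblasts 49.3, 47.9 and 48.1. Control myotubes held 31.2, 29.4 and 30.2 CPM, overexpressor myotubes 37.9, 43.5 and 44.7 and knockout myotubes 68.5, 66.7 and 58.2. The groups did not overlap at either stage, and control went from the highest of the myoblasts to the lowest of the myotubes. Sesn1 fell by 0.64 ± 0.07 in overexpressor myoblasts (adjusted p = 1.12e-06) and rose by 0.47 ± 0.07 in overexpressor myotubes (adjusted p = 1.96e-05). In knockout myoblasts the change was −0.13 ± 0.07 (adjusted p = 0.152), and in knockout myotubes the level was 2.13-fold that of control, without a test. Differentiation lowered Sesn1 by 0.80 ± 0.07 in control (adjusted p = 2.01e-08), and raised it by 0.30 ± 0.07 in the overexpressor (adjusted p = 0.00133) and by 0.41 ± 0.07 in the knockout (adjusted p = 7.66e-05, and 0.25 with library totals, adjusted p = 0.0104). The responses differed from control by 1.11 ± 0.10 in the overexpressor (adjusted p = 9.99e-08) and 1.22 ± 0.10 in the knockout (adjusted p = 2.47e-08), and both differences passed under every alternative.

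Zmat3 (chromosome 3, 32334792 to 32366014, minus strand), the RNA-binding target, fell in knockout myoblasts and in overexpressor myotubes. Control, overexpressor and knockout myoblasts held 81.2 to 88.3, 82.3 to 85.1 and 63.3 to 64.2 CPM. Control, overexpressor and knockout myotubes held 84.1 to 96.0, 58.8 to 66.4 and 79.6 to 82.1 CPM. The knockout was the lowest line among myoblasts and the overexpressor among myotubes, where the knockout also lay below control without overlap. The fall was 0.42 ± 0.06 in knockout myoblasts (adjusted p = 1.15e-05) and 0.52 ± 0.06 in overexpressor myotubes (adjusted p = 7.24e-07). Zmat3 fell with differentiation in the overexpressor (−0.41 ± 0.06, adjusted p = 8.64e-06), rose in the knockout (0.34 ± 0.06, adjusted p = 9.48e-05) and did not pass in control (0.08 ± 0.06, adjusted p = 0.285). Against the control response, the differences were −0.49 ± 0.09 (adjusted p = 0.000147) and 0.26 ± 0.09 (adjusted p = 0.0165). The latter was 0.22 (adjusted p = 0.0512) without control myotube library C, 0.42 (adjusted p = 0.0021) with DESeq2 size factors and 0.55 (adjusted p = 8.94e-05) with the GC offset, and the former was −0.30 (adjusted p = 0.00909) with library totals. With library totals the change in control was −0.17 (adjusted p = 0.0228), and the rise in the knockout was 0.17 (adjusted p = 0.0211), or 0.54 with the GC offset (adjusted p = 9.97e-07).

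Phlda3 (chromosome 1, 135766119 to 135769136, plus strand), the AKT competitor, was the most abundant of the 10 per length of exon, at 145 CPM per kb in control myoblasts against 66.2 for Bax and 48.4 for Trp53. Control myoblasts held 216 to 233 CPM, overexpressor myoblasts 221 to 272 and knockout myoblasts 246 to 253. Control myotubes held 279 to 321 CPM, overexpressor myotubes 202 to 251 and knockout myotubes 375 to 469, without overlap. Phlda3 rose with differentiation in control (0.40 ± 0.10, adjusted p = 0.0015) and knockout (0.71 ± 0.10, adjusted p = 4.92e-06). With the GC offset these rises were 0.51 and 0.48. The change in the overexpressor did not pass (−0.18 ± 0.10, adjusted p = 0.122). It passed in 4 alternatives, among them library totals (adjusted p = 0.0321) and the GC covariate (0.00235), and was 0.0092 with the GC offset. The knockout response differed from that of control by 0.31 ± 0.14, which did not pass (adjusted p = 0.0667). This difference passed in 10 alternatives and was −0.030 with the GC offset (adjusted p = 0.725). The overexpressor response differed from that of control by −0.58 ± 0.14 (adjusted p = 0.00243). In overexpressor myotubes Phlda3 fell by 0.41 ± 0.10 against control (adjusted p = 0.0015), and the change was −0.23 (adjusted p = 0.0653) without library C and −0.26 (adjusted p = 0.0192) with library totals.

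Perp (chromosome 10, 18845020 to 18857073, plus strand), the desmosomal target, rose with differentiation in control cells, fell in the overexpressor and was at or near 0 in the knockout at both stages. Control myoblasts held 66, 88 and 55 counts (1.24, 1.69 and 1.22 CPM) and control myotubes 1330, 886 and 1351 counts (25.2, 20.3 and 24.4 CPM). Overexpressor myoblasts held 53, 52 and 31 counts (1.06, 1.12 and 0.72 CPM) and overexpressor myotubes 21, 48 and 26 counts (0.31, 0.60 and 0.36 CPM). Knockout myoblasts held 0, 0 and 1 counts, and all 3 knockout myotube libraries held 0. In the order of the groups, control myotubes, control myoblasts, overexpressor myoblasts, overexpressor myotubes and knockout, no neighbours overlap except the 2 knockout groups.

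In control cells Perp rose with differentiation by 4.07 ± 0.22 on the log2 scale (adjusted p = 6.63e-11), a 16.8-fold rise. In the overexpressor it fell by 1.17 ± 0.26 (adjusted p = 0.000965). Overexpressor myotubes were lower than control by 53.9-fold (−5.75 ± 0.24, adjusted p = 5.12e-12), and the responses of these lines differed by −5.24 ± 0.34 (adjusted p = 3.62e-09). Tests that use the control myotubes share libraries with the choice of Perp, so their p-values are no independent support. In overexpressor myoblasts the change was −0.52 ± 0.24 and did not pass (adjusted p = 0.0997).

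In knockout myoblasts the 3 libraries together held 1 count against 209 in control (adjusted p = 8.04e-09). These cells are the clone whose myotubes were known to lack Perp, so this test is not independent of the choice. The ratio of control to knockout was 219, with an exact 95% interval of 38.9 to 8700 from the counts. In knockout myotubes 0 of 177233311 counts came from Perp, against 3567 of 167730812 in control. Taking 3 counts over the knockout group as the limit, control myotubes were at least 1300-fold higher, a value that describes the choice of the gene and is no test. Beside this, the epithelial marker Krt14 was at 51.3 ± 1.51 CPM in control and 11.1 ± 1.59 in knockout myoblasts, and at 15.3 ± 0.62 in control and 0.59 ± 0.29 in knockout myotubes (SD, n = 3). Overexpressor myoblasts held the most Krt14, 115 ± 10.3 CPM, and overexpressor myotubes 4.11 ± 0.20. From myoblasts to myotubes of control, Krt14 was lower where Perp was higher. Among myotubes both were highest in control and lowest in the knockout, and among myoblasts Krt14 was highest in the overexpressor and Perp in control. Epcam had no count. Krt14 does not stand for all 5 epithelial markers. Among myotubes their summed level spanned 15.1 to 16.6 CPM for control, 5.11 to 5.72 for the overexpressor and 2.34 to 3.30 for the knockout. The knockout sum lay well above its Krt14 level, so other markers of that list had counts there. The part of epithelial transcripts in the Perp values was not tested.

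The genes around Perp were compared to see whether its absence extends along the chromosome. Of 17 annotated genes within 500 kb, 4 passed the filter, and all 4 had counts in the knockout. Tnfaip3, 144 kb beyond Perp and an inhibitor of NF-kB signalling, stood at 9.92 ± 0.58 CPM in control and 24.6 ± 2.81 in knockout myoblasts (adjusted p = 1.3e-09), and at 42.5 ± 2.19 and 51.5 ± 3.43 in myotubes. Hebp2, 299 kb before it, stood at 16.7 ± 1.28 CPM in control and 14.6 ± 0.72 in knockout myoblasts (adjusted p = 0.0755) and at 13.2 ± 0.99 and 13.6 ± 0.49 in myotubes. Nhsl1, 311 kb before it, was at 71.5 ± 2.15 and 56.4 ± 2.09 CPM in myoblasts (−0.34, adjusted p = 0.000207) and at 38.3 ± 2.24 and 38.8 ± 3.12 in myotubes. The noncoding gene Gm20139, 285 kb beyond, was at 0.01 ± 0.02 CPM in control and 0.50 ± 0.19 in knockout myoblasts (adjusted p = 4.12e-06). In myotubes it was at 1.64 ± 0.16 CPM in control and 2.19 ± 0.23 in the knockout. None of the 4 neighbours was missing from the knockout as Perp was. No gene nearer to Perp than Tnfaip3 on one side and Hebp2 on the other passed the filter. Arfgef3, 101 kb before Perp, did not pass but stood at 0.08 ± 0.01 CPM in knockout and 0.03 ± 0.01 in control myoblasts. In myotubes it was at 0.01 ± 0.01 CPM in both lines. At such levels an absence confined to that stretch could hardly be seen.

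**Figure D4:**
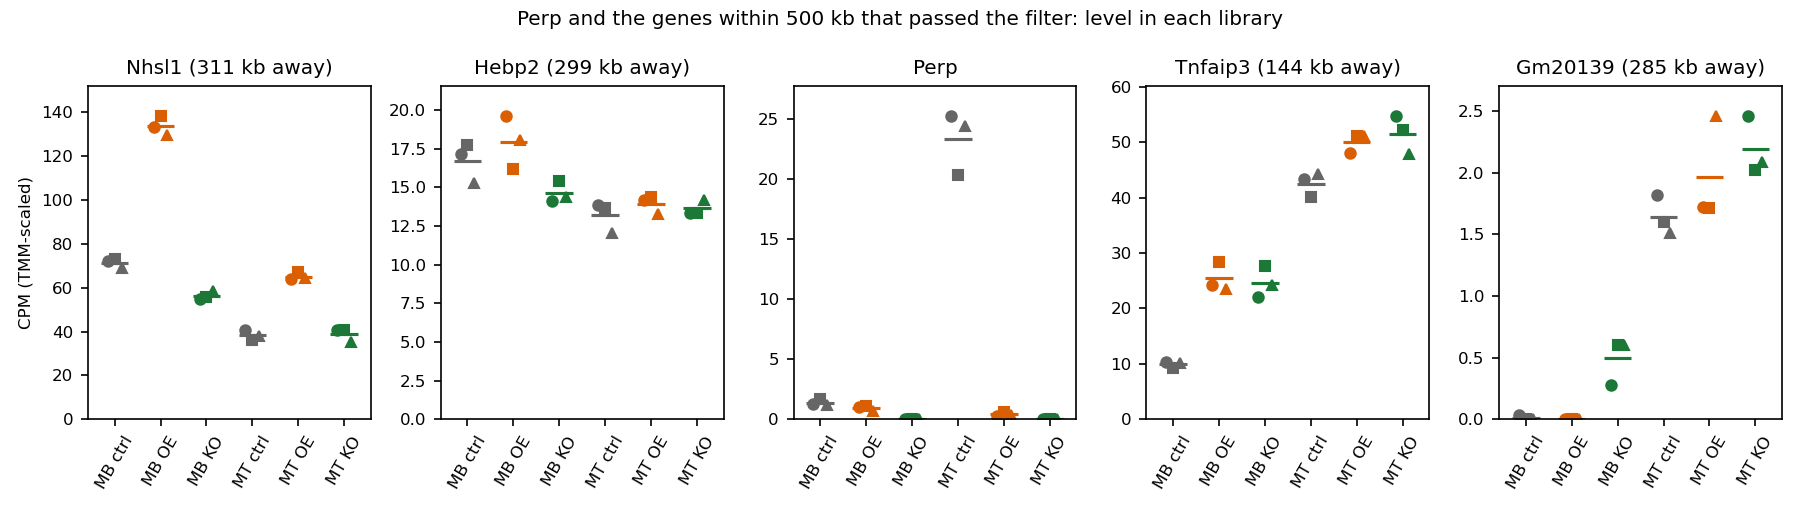
Level of Perp and of the 4 genes within 500 kb that passed the filter, in CPM per library on linear axes from 0, with the distance to Perp above each plot (abbreviations and symbols as in the plot of the 10 genes). Perp is at or near 0 in the knockout, where Nhsl1, Hebp2, Tnfaip3 and Gm20139 all have counts.

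The 5 genes whose log2 CPM followed Perp most closely over the 18 libraries were Glis2 (Pearson's r = 0.98), Sh3d19 (0.98), Ssbp2 (0.98), Angptl4 (0.97) and Fbln2 (0.97). The libraries share lines and stages, and the genes were picked by this correlation, so these values and the shared pattern are a description. Each was highest in control myotubes, as Perp was, and lower in the knockout. Fbln2, the gene of the matrix protein fibulin 2, stood at 541 ± 20.4 CPM in control and 95.5 ± 5.40 in knockout myoblasts while control myotubes held 1456 ± 61.5, overexpressor myotubes 167 ± 24.5 and knockout myotubes 97.1 ± 3.52. Glis2, a zinc finger gene, stood at 86.7 ± 4.27, 34.4 ± 0.98, 155 ± 7.26, 63.5 ± 5.98 and 35.9 ± 2.33 CPM in the same 5 groups. Overexpressor myoblasts held 329 ± 17.5 CPM of Fbln2 and 90.3 ± 5.76 of Glis2, the latter not below control myoblasts in the mean, as Perp was.

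Among the regulators of p53, Mdm4, the partner of Mdm2, did not pass in myoblasts of either mutant line and was lower in overexpressor than control myotubes, at 38.2 ± 13.2 against 61.9 ± 10.4 CPM (−0.70 ± 0.27, adjusted p = 0.0377). The change of Mdm4 without overexpressor myotube library C was not taken. Knockout myotubes held 24.1 ± 9.02 CPM of it, the lowest of the 6 groups. Cdkn2a, whose product p19ARF blocks Mdm2, had 0 counts in all 18 libraries. Of the 16 regulators tested, Mdm4 among them, Ep300, an acetyltransferase that acts on p53, was lower in the myoblasts of both mutant lines (−0.56, adjusted p = 6.18e-05 in the overexpressor, and −0.73, adjusted p = 1.94e-06 in the knockout). The checkpoint kinase gene Chek2 was higher in overexpressor (0.53, adjusted p = 3.06e-05) and lower in knockout myoblasts (−0.41, adjusted p = 0.000299). In all, 3 regulators were higher and 1 lower in overexpressor myoblasts, 2 higher and 3 lower in knockout myoblasts, and 4 higher and 2 lower in overexpressor myotubes. Their medians were −0.01, −0.04 and −0.05, against 0.02, 0.02 and −0.04 for all genes. Over all genes 40.4%, 53% and 57.1% passed in these comparisons, which holds beside the counts of each list that follows. The last count was 10 without overexpressor myotube library C. Between knockout and control myotubes, described without a test, the median was −0.41 for the regulators, 0.33 for the cell cycle targets, 0.49 for the cell death targets, −0.40 for the repair targets and −0.36 for the metabolic and secreted targets, against −0.07 for all genes. It was 0.02 for the relatives of the 10 genes, 0.05 for the BCL-2 family partners and 0.08 for the desmosome plaque genes.

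Among the other cell cycle targets of p53, Cdkn1a and its neighbour Trp53cor1 rose in the myoblasts of both mutant lines. Cdkn1a, the gene of the cell cycle inhibitor p21, is induced by p53 and, in muscle, by differentiation. Control myoblasts held 237 ± 19.5 CPM, overexpressor myoblasts 401 ± 46.5 and knockout myoblasts 1564 ± 108 (SD, n = 3), and the changes were 0.76 ± 0.10 (adjusted p = 7.33e-06) and 2.72 ± 0.11 (adjusted p = 4.38e-13). In control myotubes it stood at 2361 ± 172 CPM, so that knockout myoblasts reached part of the level of differentiated control cells. Trp53cor1, the noncoding RNA next to Cdkn1a, rose with it in both lines (1.51, adjusted p = 4.13e-08, and 2.09, adjusted p = 2.73e-10). Of the 9 cell cycle targets, 5 were higher and 0 lower in overexpressor myoblasts, 5 higher and 3 lower in knockout myoblasts (Sfn, Gtse1 and Psrc1 lower), and 3 higher and 3 lower in overexpressor myotubes. The medians were 0.48, 0.33 and −0.08.

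Among 11 further cell death targets, Pmaip1, the gene of the BH3-only protein NOXA, had the largest rise in overexpressor myoblasts. Control myoblasts held 2.89 ± 0.55 CPM, overexpressor myoblasts 52.7 ± 6.41 and knockout myoblasts 14.4 ± 2.96, changes of 4.18 (adjusted p = 7.43e-09) and 2.31 (adjusted p = 2.48e-06). Trp53i11 fell from 522 counts over the 3 control myoblast libraries to 22 in the overexpressor (adjusted p = 5.56e-07) and 3 in the knockout (adjusted p = 2.21e-08). The list held 2 higher and 4 lower genes in overexpressor myoblasts, 4 higher and 6 lower in knockout myoblasts and 5 higher and 3 lower in overexpressor myotubes, with medians of −0.18, −0.28 and 0.14. Of 12 measured BCL-2 family partners of Bax and Bbc3, which include Pmaip1, 5 were higher and 3 lower in overexpressor myoblasts, 3 higher and 7 lower in knockout myoblasts and 4 higher and 5 lower in overexpressor myotubes. Their medians were 0.13, −0.27 and −0.08. Bik, a BH3-only gene at 1.41 ± 0.14 CPM in control myoblasts, fell to 0.42 ± 0.18 in the overexpressor (adjusted p = 8.9e-05) and 0.07 ± 0.03 in the knockout (adjusted p = 2.27e-08).

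Of 17 metabolic and secreted targets, 6 were higher and 6 lower in overexpressor myoblasts, 3 higher and 9 lower in knockout myoblasts and 3 higher and 11 lower in overexpressor myotubes, with medians of −0.04, −0.38 and −0.57. Igfbp3, which binds insulin-like growth factors, fell from 53.7 ± 1.24 CPM in control myoblasts to 8.50 ± 1.01 in the overexpressor (−2.66, adjusted p = 3.99e-12). In knockout myoblasts it had 1 count against 8076 in control (adjusted p = 4.68e-16). Tap1, a peptide transporter gene, was at 3.25 ± 0.47 CPM in control, 0.33 ± 0.25 in overexpressor (adjusted p = 2.89e-07) and 0.76 ± 0.17 in knockout myoblasts (adjusted p = 1.07e-05). Of 6 DNA repair targets, 1 was higher and 1 lower in overexpressor myoblasts, 1 higher and 2 lower in knockout myoblasts and 0 higher and 2 lower in overexpressor myotubes, with medians of 0.01, −0.20 and −0.31. Without overexpressor myotube library C, 4 repair targets passed in the last comparison.

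The p53 relatives were at low levels in myoblasts, and Trp63 rose with differentiation in every line. Trp63, the gene of p63, which also binds p53-type elements and is known to activate Perp in epithelia, stood at 0.39 ± 0.06 CPM in control myoblasts, at 2.14 ± 0.23 in those of the overexpressor and at 3.33 ± 1.03 in those of the knockout (adjusted p = 4.56e-08 and 6.48e-10 against control). Control myotubes held 32.3 ± 1.24 CPM, overexpressor myotubes 53.7 ± 3.53 and knockout myotubes 66.1 ± 6.36. Control, where Perp was highest, had the lowest Trp63 of the 3 lines at both stages, while within control both genes rose with differentiation. The part of Trp63 in the Perp values was not tested. Trp73, the gene of p73, held 18 counts over the control myoblasts, 1 over the overexpressor and 69 over the knockout (adjusted p = 0.0213 and 0.0149). Of 10 measured relatives of the 10 genes, 3 were higher and 3 lower in overexpressor myoblasts, 3 higher and 2 lower in knockout myoblasts and 4 higher and 4 lower in overexpressor myotubes, with medians of 0.13, 0.0047 and −0.23.

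Desmosome plaque genes encode the junction that Perp is part of. Of the 6 listed, Dsp, the gene of desmoplakin, did not pass the filter on low counts, with 0 to 14 counts over each group. Of the 5 tested, 2 were higher and 1 lower in overexpressor myoblasts, 1 higher and 3 lower in knockout myoblasts and 4 higher and 1 lower in overexpressor myotubes, with medians of 0.21, −0.56 and 0.58. Pkp1, a plakophilin gene, was at 101 ± 5.87 CPM in control, 276 ± 15.6 in overexpressor (adjusted p = 2.04e-11) and 68.3 ± 3.94 in knockout myoblasts (adjusted p = 3.24e-06). Control myotubes held 156 ± 6.44 CPM, overexpressor myotubes 93.8 ± 8.78 and knockout myotubes 88.4 ± 3.56, where Perp had no count. Pkp2 was lower in the myoblasts of both mutant lines, at 53.8 ± 1.26 CPM in control, 24.7 ± 1.06 in the overexpressor (adjusted p = 8.01e-10) and 33.8 ± 2.57 in the knockout (adjusted p = 4.49e-07).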

How the data were processed

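The authors deposited raw counts per Ensembl gene from polyA RNA, with 1 column for each of the 18 libraries. The submitters' processing notes name STAR 2.7.9a, featureCounts of Subread 2.0.3, FastQC 0.11.7, DESeq2 1.32.0 and mm10. The annotation release, the counting options and the use of strand are not given in the sources used here, so overlapping genes are uncertain. Of 55450 IDs, 55190 were matched to GENCODE vM21 (GRCm38), which gave symbols and positions.

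Libraries were grouped by title. The test was edgeR 4.0.16 (R 4.3.3) on the deposited counts: filterByExpr by group, TMM, robust quasi-likelihood fit of all 18 libraries with 6 group coefficients and 12 residual degrees of freedom, and Benjamini-Hochberg adjustment over 17912 genes at 0.05, in 11 comparisons. The median coefficient of variation was 11.1%. The SE is the log2 change over the square root of F. The script was tested on simulated data. Replicate libraries differed beyond sampling noise in every pair.

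The members and lists were chosen with earlier results of these data known. Named besides the 10 genes were Cdkn1a, Mdm4, Cdkn2a, Trp63, Trp73 and Meg3, at most 2 genes per list with the largest changes among those passing in the myoblasts of both mutant lines, the 5 genes most like Perp, and its neighbours. Single list members named only by direction, Krt14 and Epcam were chosen after their values were seen. The lists held regulators of p53, its cell cycle, cell death, DNA repair and metabolic targets, relatives of the members, BCL-2 family genes and desmosome plaque genes. Alternatives were DESeq2 size factors, library totals, other filters, DESeq2 1.42.0, a replicate block, only the groups compared, leaving out each library and, chosen after the data were seen, 2 corrections for GC content. The deposited variance-stabilised values were not used here.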

Additional observations from a re-analysis of the deposited data

Results flagged for a closer look

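For the results below, the change from myoblast to myotube differed between a mutant line and control by edgeR's test of that difference, on the log2 scale. A positive difference means a higher change in the mutant line, not a larger one. In the overexpressor, Sesn1 rose where it fell in control (difference 1.11, adjusted p = 9.99e-08), and Ccng1 rose where its change in control did not pass (1.11, adjusted p = 0.0178). Perp fell where it rose in control (−5.24, adjusted p = 3.62e-09), a test that uses the control myotube libraries, which entered the choice of Perp. Bbc3 rose less than in control (−0.65, adjusted p = 0.000879), and Bax fell further than in control (−0.40, adjusted p = 0.0132, a call lost in 4 alternatives). Phlda3 rose in control and did not pass in the overexpressor (−0.58, adjusted p = 0.00243), and Zmat3 fell in the overexpressor and did not pass in control (−0.49, adjusted p = 0.000147).

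In the knockout, Sesn1 (1.22, adjusted p = 2.47e-08) and Bax (0.55, adjusted p = 0.00104) rose where they fell in control. Trp53 fell in control and did not pass in the knockout (0.33, adjusted p = 0.0326), Mdm2 rose in control and did not pass in the knockout (−0.43, adjusted p = 0.0349), and Zmat3 rose in the knockout and did not pass in control (0.26, adjusted p = 0.0165). The differences of Trp53, Mdm2 and Zmat3 lost the call in 7, 15 and 2 alternatives. With the GC offset the difference of Mdm2 was −0.044 (adjusted p = 0.76). With that offset the fall of Trp53 in the knockout passed (−0.30, adjusted p = 0.000104), and the rise of Bax there was 0.02 (adjusted p = 0.697). Both sets of differences use the same control libraries.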

How the results depend on the processing

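Depending on the comparison, 39.0% to 65.4% of all genes passed. Of 95 comparisons tested for the 10 genes, which leave out Perp wherever a knockout group enters, 59 passed. Of these, 45 kept call and direction under every alternative and 14 lost the call under at least 1. Of the 36 others, 21 gained it under at least 1. The causes were not tested. The 2 corrections for GC content were chosen after seeing the data, and the offset also removes differences between groups that follow GC. Genes of the 10 that passed in overexpressor against control myoblasts numbered 8 with the GC offset and 8 with the GC covariate, and 3 to 6 leaving out 1 library. In knockout against control myoblasts they numbered 7 with only the groups compared, 8 with the offset and 7 with the covariate. In knockout differentiation they numbered 8 with the offset. For the knockout response against control they numbered 3 with no filter on low counts, and 2 to 6 leaving out 1 library. Of all genes, 8524 passed with the offset in overexpressor myoblasts against 7231 without it, and 10591 against 9490 in knockout myoblasts. The numbers were 11235 against 10236 in overexpressor myotubes and 11559 against 11707 in knockout differentiation. For most other settings no count over all genes is given. Gains under them, also in the lists below, cannot be set against it.

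Regulators of p53 that passed numbered 9 with the covariate in overexpressor myoblasts, 10 with only the groups compared and 11 with the covariate in knockout myoblasts, and 11 with the covariate in overexpressor myotubes, where leaving out 1 library gave 4 to 10. DNA repair targets in overexpressor myoblasts numbered 1 with library totals, with no filter and with the replicate block, and 1 to 2 leaving out 1 library. In knockout myoblasts they numbered 1 with DESeq2 size factors, no filter, the DESeq2 Wald test and the replicate block, 6 with only the groups compared, 5 with the covariate, and 1 to 3 leaving out 1 library. In overexpressor myotubes they numbered 1 with no filter and with only the groups compared, 4 with the offset, 6 with the covariate, and 1 to 4 leaving out 1 library. Relatives of the members in knockout myoblasts numbered 8 with only the groups compared.

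With the GC offset the log2 change turned, between overexpressor and knockout myotubes, to −0.13 for Mdm2, −0.17 for Ccng1, 0.28 for Bbc3 and −0.36 for Trp53inp1. It turned between knockout and control to 0.080 for Bax in myoblasts, and in myotubes to 0.27 for Trp53inp1 and 0.039 for Zmat3. In differentiation it turned to −0.11 for Trp53inp1 and −0.0076 for Zmat3 in control, 0.57 for Trp53inp1 in the knockout and 0.0092 for Phlda3 in the overexpressor. The knockout responses turned to −0.21 for Bbc3, 0.68 for Trp53inp1 and −0.030 for Phlda3, and overexpressor against knockout myoblasts to −0.11 for Phlda3.

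With library totals, knockout differentiation turned to −0.088 for Mdm2 and −0.0059 for Ccng1, control differentiation to −0.21 for Trp53inp1 and −0.17 for Zmat3, Bax in overexpressor against control myotubes to 0.0097, and Bbc3 between mutant myotubes to 0.10. Bbc3 there was 0.026 with no filter and 0.012 with only the groups compared. Trp53inp1 in overexpressor against control myotubes was 0.091 with DESeq2 size factors and with the Wald test, 0.14 with library totals, 0.0098 with no filter, 0.0054 with a minimum of 1 CPM and 0.045 with only the groups compared, a setting that gave −0.036 in control differentiation.

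Leaving out 1 library, Mdm2 ranged from −0.080 to 0.18 between mutant myotubes, −0.047 to 0.16 in knockout differentiation and −0.012 to 0.13 in the overexpressor response. Ccng1 ranged from −0.28 to 0.011 between mutant myoblasts and −0.011 to 0.26 in knockout differentiation, Bax from −0.21 to 0.041 in overexpressor against control myotubes, Bbc3 from −0.053 to 0.065 between mutant myotubes and Phlda3 from −0.017 to 0.13 between mutant myoblasts. Trp53inp1 ranged from −0.34 to 0.056 between mutant myoblasts, −0.50 to 0.26 in overexpressor against control myotubes, −0.026 to 0.99 between mutant myotubes, −0.077 to 0.18 in control and −0.12 to 0.70 in overexpressor differentiation, and −0.083 to 0.67 in the overexpressor response.

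Scaled by library totals, all genes had a median log2 change of −0.17 instead of 0.07 in control differentiation, where the share of passing genes that were higher went from 54% to 37.9%. The median was 0.11 instead of −0.04 in overexpressor against control myotubes (45.8% to 57.8%, and 55.1% with DESeq2 size factors), 0.12 instead of 0.02 between mutant myotubes (51.2% to 60%), −0.24 instead of −0.08 in knockout differentiation (45.5% to 34%) and 0.13 instead of −0.05 in the overexpressor response (42.7% to 61%). With DESeq2 size factors it was 0.04 instead of −0.12 in the knockout response (40.4% to 52%). The replicate letters did not pair the libraries: of 45 correlations between libraries of the same letter, from −0.36 to 0.26, 4 were over 0.1. With the letter as a replicate block, Ccng1 between mutant myotubes (0.59, adjusted p = 0.0568) and Mdm2 in the knockout response (−0.43, adjusted p = 0.0514) no longer passed. At these depths, the lowest levels, such as those of Perp in the knockout, are limited by counting.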
